A study of Mus musculus with 30 samples.

Results

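Described here are 35 genes of glucose use in mouse tumour macrophages, out of 46603 gene IDs in the deposited count table. They were chosen by name, as 3 glucose carriers and the enzymes of glycolysis, the pentose phosphate pathway and glycogen, without lactate dehydrogenase, and each was found in the table. The macrophages came from tumours that 3LL-R cells, a Lewis lung carcinoma line, had formed under the skin of wild-type (WT) C57BL/6 mice, and were sorted by their surface MHC class II into an MHC-IIhi and an MHC-IIlo subset. Each subset was sequenced in bulk in 3 states with 5 libraries per group. Fresh libraries came from 30000 cells lysed straight after the sort, and the cultured ones from 250000 sorted cells kept for 24 h either without lactate or with 20 mM sodium L-lactate. All groups share the strain, the genotype and the tumour line. The age and sex of the mice, any pooling of animals, and the glucose and oxygen of the culture are not given in the sources used here.

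Glycolysis splits glucose into pyruvate and yields ATP without oxygen. Glucose enters through carriers, is trapped by hexokinase, committed by phosphofructokinase, and its carbon leaves as pyruvate by way of pyruvate kinase. From glucose 6-phosphate the pentose phosphate pathway branches off, which makes NADPH and ribose, and phosphoglucomutase leads to glycogen, the stored polymer that glycogen synthase builds and glycogen phosphorylase breaks down. Macrophages lean on glycolysis when activated, and the hypoxia-inducible factor HIF-1 drives many of these genes when oxygen is low.

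Since HIF proteins bind DNA at the short cores ACGTG and GCGTG, the promoters of the members were searched for them. The windows are the 250 bases upstream of RefSeq gene starts (assembly GRCm38.p6), read on both strands. Of 35 members, 34 had at least 1 window (46 windows, since some genes have several starts) and Slc2a3 had none. The 5 below show members that the results turn on. Slc2a1 and Hk2, at the entry of the pathway, and Pgk1 were all far lower in MHC-IIlo than in MHC-IIhi cells cultured without lactate. Hk3 went up in culture, and Gys1 was among the most reduced without holding a core. They are written 5′ to 3′ on the strand of the gene, with every ACGTG or GCGTG, or its reverse complement, in capitals. The Slc2a1 window ends where the annotated gene begins.
Slc2a1, chr4:119108495-119108710, + strand: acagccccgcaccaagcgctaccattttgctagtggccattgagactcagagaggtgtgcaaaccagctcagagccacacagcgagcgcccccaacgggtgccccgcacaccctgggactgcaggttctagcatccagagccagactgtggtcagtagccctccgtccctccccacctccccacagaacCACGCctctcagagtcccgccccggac
Hk2, chr6:82774455-82774704, - strand: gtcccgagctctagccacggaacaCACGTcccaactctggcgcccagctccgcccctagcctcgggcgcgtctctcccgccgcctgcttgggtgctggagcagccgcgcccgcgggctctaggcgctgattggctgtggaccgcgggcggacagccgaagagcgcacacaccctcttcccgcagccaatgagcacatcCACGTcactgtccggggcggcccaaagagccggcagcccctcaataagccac
Hk3, chr13:55021386-55021635, - strand: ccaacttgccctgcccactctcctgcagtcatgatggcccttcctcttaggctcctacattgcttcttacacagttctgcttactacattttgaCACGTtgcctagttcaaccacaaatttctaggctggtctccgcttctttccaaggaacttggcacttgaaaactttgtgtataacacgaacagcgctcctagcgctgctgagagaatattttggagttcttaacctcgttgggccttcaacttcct
Pgk1, chrX:106186850-106187099, + strand: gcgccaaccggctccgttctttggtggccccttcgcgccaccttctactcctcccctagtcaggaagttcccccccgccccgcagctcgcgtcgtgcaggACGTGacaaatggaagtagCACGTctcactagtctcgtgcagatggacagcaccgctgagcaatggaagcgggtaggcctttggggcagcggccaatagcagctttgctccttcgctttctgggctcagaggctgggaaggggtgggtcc
Gys1, chr7:45434589-45434838, + strand: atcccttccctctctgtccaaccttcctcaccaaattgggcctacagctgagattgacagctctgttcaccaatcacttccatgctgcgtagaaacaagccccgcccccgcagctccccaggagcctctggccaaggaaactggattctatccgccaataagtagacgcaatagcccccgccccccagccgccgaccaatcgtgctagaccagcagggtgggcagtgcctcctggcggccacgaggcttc

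Hk2 and Pgk1 each held ACGTG at 2 places, Hk3 at 1, and the Slc2a1 stretch held GCGTG once. The whole 250-base Slc2a1 window, which runs on to 119108744, held 1 more core, an ACGTG that the printed stretch ends within, and it is counted below. ACGTG stood in 16 of the 46 member windows (34.8%), against 16.6% of all 32851 RefSeq windows and 21.3% of the 12337 windows of genes tested in culture. GCGTG stood in 24 windows (52.2%), against 28.2% and 43.9%. The E-box CACGTG, which also contains ACGTG and is bound by Myc and its relatives, was in 3 member windows (6.52%), against 6.02% of all windows and 8.19% of those tested. Either core was present in 35 member windows (76.1%), against 38.6% of all and 55.0% of those tested. Windows of the same gene overlap for Eno1, Aldoa and Pfkm, and a core in the overlap is counted in each window. Median G and C content was 59.8% in the member windows, 59.6% in the tested and 52.4% in all windows. By gene, 28 of 34 members held a core in at least 1 window, and Gpi1, Tpi1, Eno2, Rpe, Gbe1 and Gys1 held none. Of the 19 members lower in MHC-IIlo without lactate 15 held one, and of the 14 with a window that did not pass there, 12. No matching share over all genes was counted for these by-gene numbers, and a gene with several windows has more chances to hold a core. A match is a description of the letters and says nothing of binding in these cells.

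Total counts were 16913250 to 31481548 per library, and the 35 members together took 0.674% to 1.65% of them. Levels are CPM, read counts scaled to library size with TMM over all 30 libraries, as mean ± SD with n = 5, and log2 fold changes carry their SE. Cultured libraries are named by the number in their column header. Nothing in the sources says which libraries came from separate mice, so the tests measure the spread between these libraries. H2-Ab1, an MHC class II chain, checked the subset labels at 4894 CPM in fresh MHC-IIhi against 89.1 in MHC-IIlo, and it was lower in MHC-IIlo in culture too. Of 8 macrophage markers all were counted in every library. Library 5 of lactate MHC-IIlo stood apart, with a median correlation of 0.916 to its group, against at least 0.965 for each library of the other 5 groups, a TMM factor of 1.28 and the lowest summed macrophage markers (4303 CPM). Beside the subset difference, the sum of 8 dendritic cell markers was 35.3 to 62.2 CPM in fresh MHC-IIhi and 4.29 to 7.22 in fresh MHC-IIlo, and 93.7 to 277 against 0.723 to 4.55 without lactate. In fresh MHC-IIhi Kmo (20.5 CPM) and Cd209a (12.5) led it. In no-lactate MHC-IIhi it was mostly Ccr7 (146 CPM, against 5.07 fresh), with Flt3 at 29.1 (2.19 fresh) and Zbtb46 at 6.75 (4.12 fresh). Kmo (0.947 CPM), Cd209a (0.0156) and Batf3 (2.21, against 3.99 fresh) were lower there than in fresh MHC-IIhi. Xcr1 and Clec9a were at or near 0 in every group. The 8 neutrophil markers summed to 166 to 288 CPM in fresh MHC-IIhi and 401 to 688 in fresh MHC-IIlo, and 5 of the 6 tested were higher in MHC-IIlo. Mmp8 led (433 against 176 CPM), Csf3r was at 65.5 against 41.8, S100a9 at 27 against 12.5 and S100a8 at 16 against 8.08, while Ly6g and Camp were at or near 0. The part of these cells in the results was not tested. In bulk RNA, fewer cells of a type and less RNA per cell cannot be told apart.

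**Figure D1:**
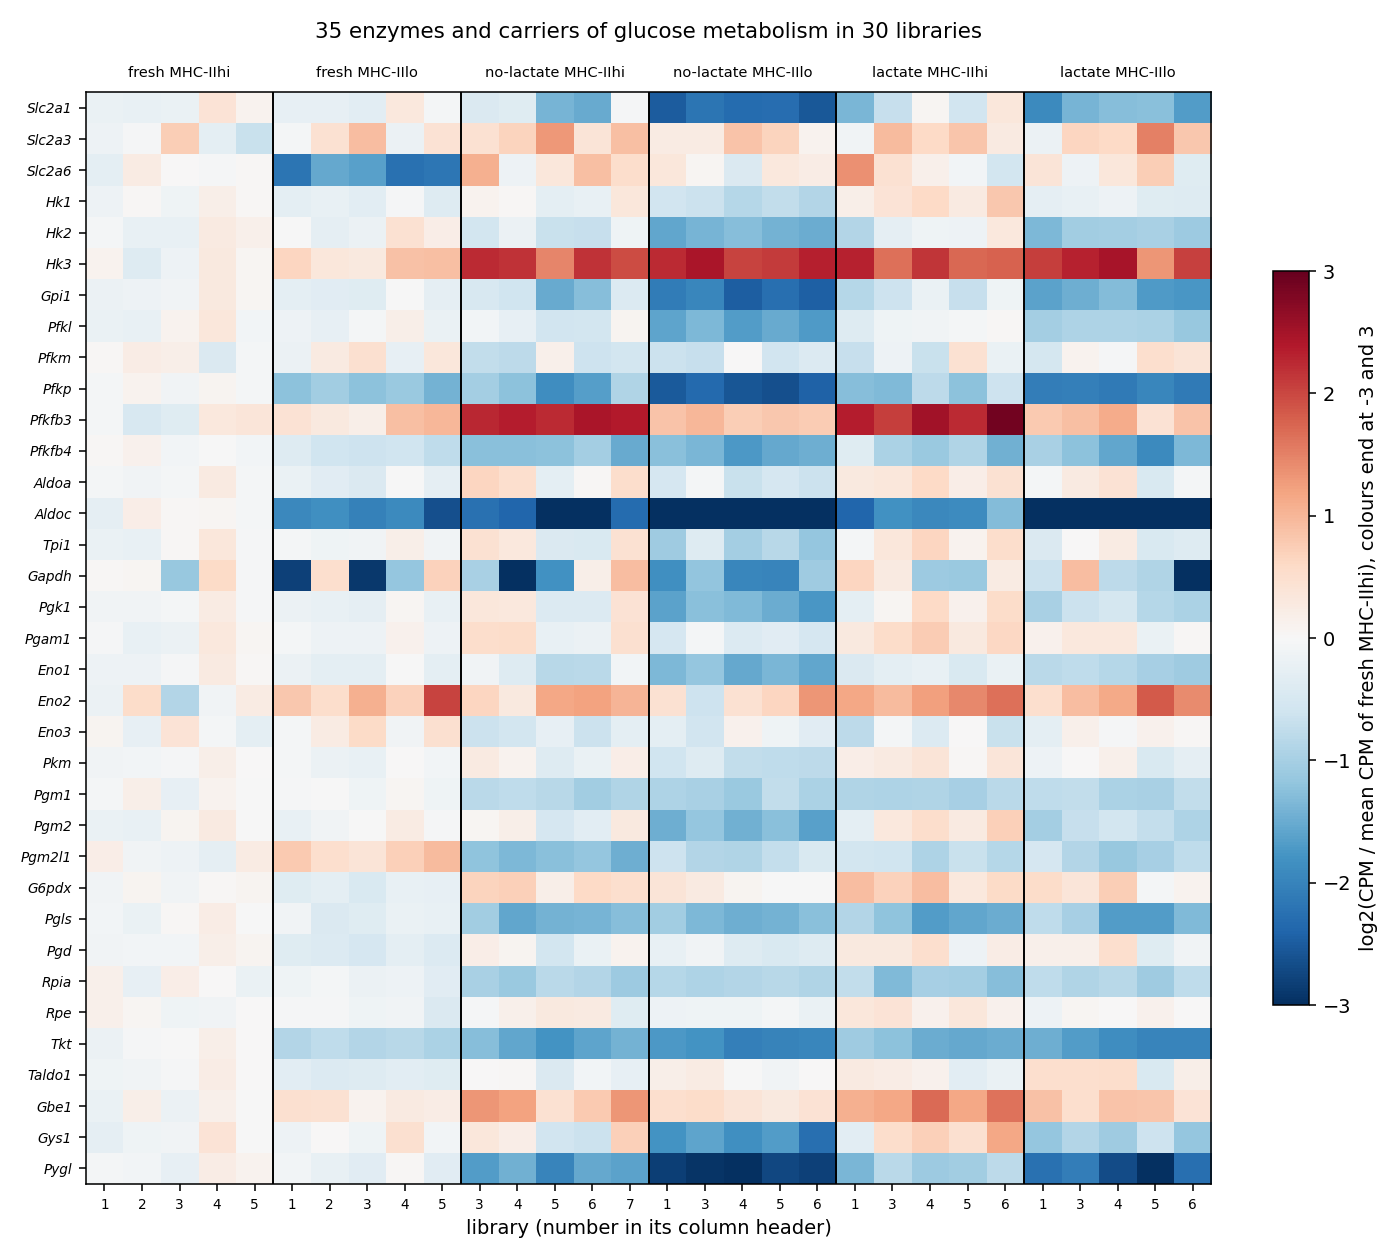
Level of the 35 members (rows) in 30 libraries (columns, 5 per group) as log2 of CPM over the mean CPM of fresh MHC-IIhi, with red above and blue below. The no-lactate MHC-IIlo columns are the bluest block, Hk3 is red in all cultured groups and Pfkfb3 is reddest in cultured MHC-IIhi.

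Cultured without lactate, MHC-IIlo cells had the lowest mean of all 6 groups for 20 of the 35 members, among them Slc2a1, Hk1, Hk2, Pfkl, Pgk1, Eno1, Pkm, Gys1 and Pygl. The highest mean was in lactate MHC-IIhi for 14 members and in fresh MHC-IIhi for 13. How often any gene is lowest or highest in these groups was not counted, so these numbers describe the members only. Differences were tested with edgeR on the raw counts, and a gene was called where its p, adjusted over all genes tested, was under 0.05. All 35 members had enough counts to be tested in each of the 9 comparisons.

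Straight from the tumour, 5 members were higher and 10 lower in MHC-IIlo than in MHC-IIhi (15 of 35, while 29.2% of all 12787 genes tested passed), with a median log2 fold change of -0.14 over members and -0.00197 over all genes. Among all genes, 14% were higher and 15.2% lower. Without lactate 1 was higher and 19 lower in MHC-IIlo (20 of 35, against 20.8% of 13593 genes), with a median of -0.62 against -0.00652 over all; 9.2% of all genes were higher and 11.6% lower. With lactate 0 were higher and 15 lower (15 of 35, against 22.4% of all genes, 9.13% higher and 13.3% lower), with a median of -0.39 against 0.0206 over all. The libraries of the subsets did not overlap for 8 lower members and 1 higher member in fresh cells (11.9% and 9.42% of all genes), for 14 and 1 without lactate (10.1% and 8.74%) and for 13 and 0 with lactate (8.31% and 4.47%). Each of the 15 members lower with lactate was also among the 19 lower without it. Of those 19, Aldoc, Hk1, Pfkp and Tkt were lower in fresh MHC-IIlo too, 13 did not pass fresh, and Pfkfb3 and Gbe1 were higher there. With the replicate number as a block, described further on, 5 of the 13 (Gpi1, Aldoa, Eno1, Pgk1 and Pygl) were called lower in fresh cells as well. The cultured comparisons share a fit, and those against fresh share libraries with the subset comparisons, so they are set side by side and not as support for each other.

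**Figure D2:**
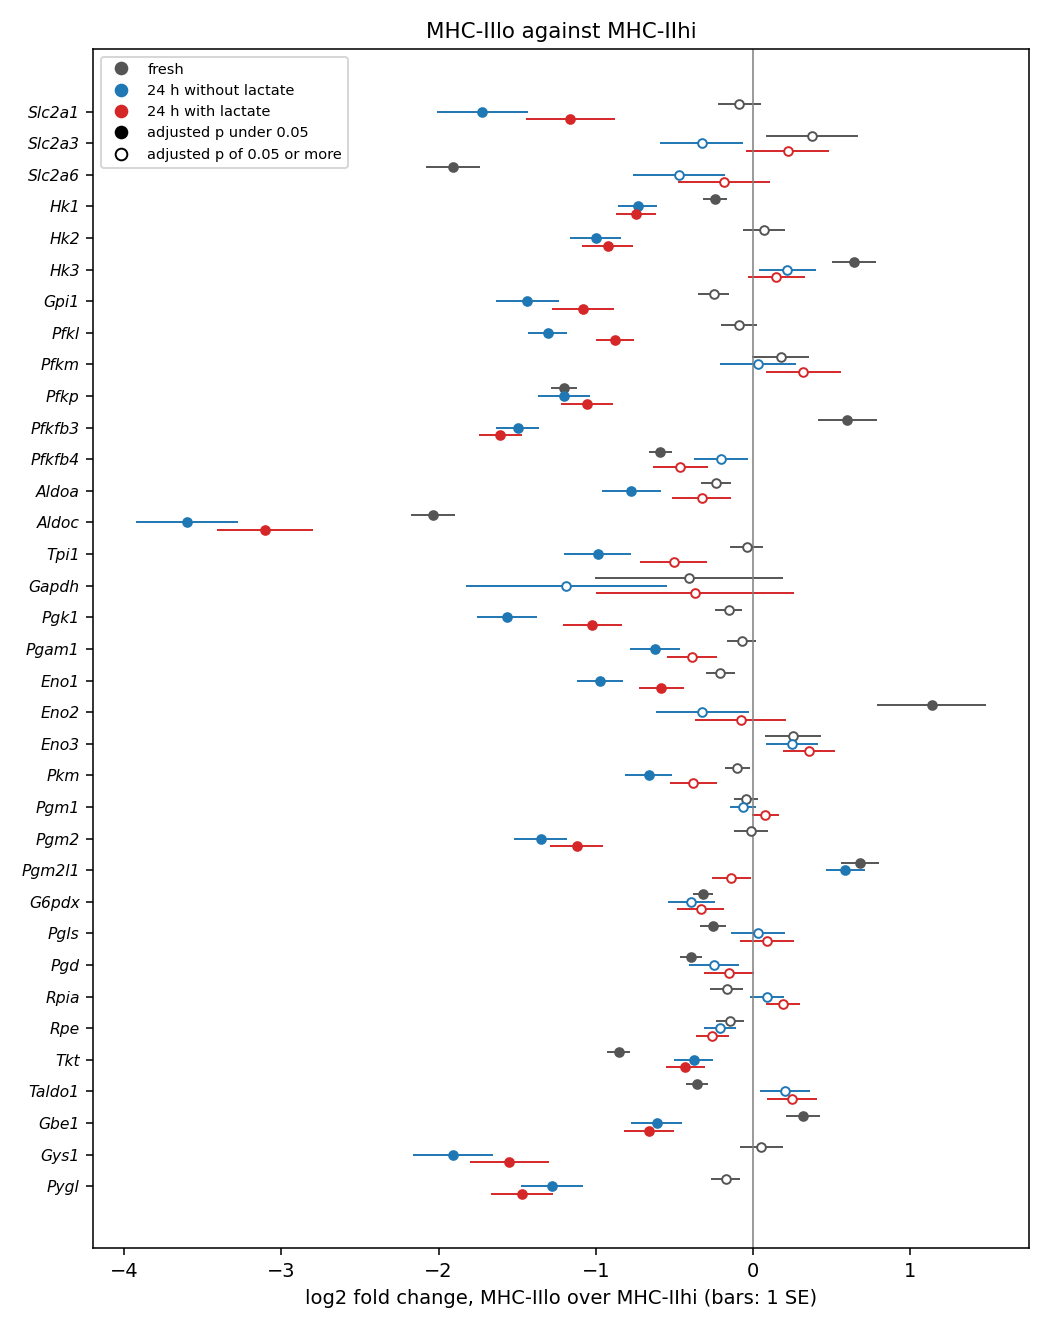
log2 fold change of MHC-IIlo over MHC-IIhi (x axis, bars 1 SE) for each member in fresh cells (grey), without lactate (blue) and with lactate (red), n = 5 libraries per group; filled points passed the test. Blue and red points lie left of 0 for most of glycolysis and glycogen, with Aldoc farthest at -3.60 and -3.11, whereas most grey points lie near 0.

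Over the 24 h of culture without lactate, 7 members rose and 14 fell in MHC-IIhi (21 of 35, against 62% of 13682 genes), and 4 rose and 22 fell in MHC-IIlo (26 of 35, against 57.5%). The median change was -0.12 in MHC-IIhi and -0.82 in MHC-IIlo, against 0.0119 and -0.00729 over all genes. Falls passed for 30.4% and 29.9% of all genes, and rises for 31.6% and 27.6%. The change differed between the subsets, by the interaction in the fit, for 19 members (14.3% of all genes), in 16 of them downwards in MHC-IIlo relative to MHC-IIhi (8.27% of all genes) and in 3 upwards (6.03%). Members that fell in MHC-IIlo and did not pass in MHC-IIhi were Gys1, Hk1, Pfkl, Pfkm, Pgk1, Pgm2, Pkm and Tpi1. Of these, Pfkm was not among the 19 with a subset difference. Its mean went from 8.64 to 6.26 CPM in MHC-IIhi and from 9.73 to 6.38 in MHC-IIlo. For Pkm (-0.54 ± 0.12 in MHC-IIlo and 0.03 ± 0.12 in MHC-IIhi) and Hk1 (-0.48 ± 0.11 and 0.01 ± 0.11) the difference was no longer called without any 1 of 10 and of 9 of the 20 libraries. Fresh and cultured libraries also differ in the number of cells lysed, so culture and cell number cannot be told apart. Marker sums moved too. From fresh to no-lactate, the median macrophage sum went from 18704 to 9641 CPM in MHC-IIhi and from 22827 to 13529 in MHC-IIlo. The monocyte sum went from 3213 to 458 and from 2880 to 175. The endothelial sum went from 102 to 389 and from 101 to 291, with Emcn at 0 in both no-lactate groups. The epithelial and tumour sum went from 521 to 49.6 and from 194 to 55.0, and mean Cdh1 in it from 438 to 7.65 and from 113 to 1.46. The sum of 5 proliferation markers went from 183 to 352 and from 194 to 274. The fibroblast sum went from 28.5 to 36.4 and from 85.8 to 30.8. The neutrophil sum went from 275 to 807 and from 573 to 944. In it mean Mmp8 went from 176 to 767 and from 433 to 836, while S100a9 fell to near 0. The part of these sums in the culture changes was not tested.

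Among the carriers, Slc2a1 (GLUT1, the main glucose carrier of macrophages) made up nearly all of the signal in fresh cells and most of it in culture. Fresh libraries held 528 to 811 CPM in MHC-IIhi and 496 to 763 in MHC-IIlo, overlapping (log2 fold change -0.09 ± 0.14, adjusted p = 0.69, edgeR). After culture without lactate the range was 214 to 603 in MHC-IIhi and only 106 to 134 in MHC-IIlo, so the highest MHC-IIlo library lay below the lowest MHC-IIhi one (log2 fold change -1.72 ± 0.29, adjusted p = 0.00016). Slc2a1 fell in both subsets, with a log2 change of -0.62 ± 0.22 in MHC-IIhi and -2.26 ± 0.23 in MHC-IIlo, and the fall was larger in MHC-IIlo (difference -1.64 ± 0.31, adjusted p = 0.0012). The call in MHC-IIhi ended without fresh library 4 or without no-lactate library 5 or 6 (log2 fold change -0.498 to -0.459, adjusted p 0.052 to 0.065).

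Slc2a6 (GLUT6), a carrier found on inner membranes, showed the opposite course. Its levels were 15.5, 22.6, 19.1, 18.7 and 19.6 CPM in fresh MHC-IIhi and 4.22, 6.63, 6.15, 4.02 and 4.29 in fresh MHC-IIlo, lower in every MHC-IIlo library (log2 fold change -1.91 ± 0.17, adjusted p = 5.1e-06). No-lactate MHC-IIlo reached 24.4, 19.8, 14.2, 23.9 and 22.3 CPM, above every fresh MHC-IIlo library (log2 fold change 2.05 ± 0.21, adjusted p = 2.9e-08), and the subset gap did not pass the test there (-0.47 ± 0.29). It was the largest rise in cultured MHC-IIlo, and larger than in MHC-IIhi (0.61 ± 0.19, difference 1.43 ± 0.28, adjusted p = 0.0014). Slc2a3 (GLUT3) stayed low at 3.07 to 13.9 CPM in all libraries, and rose in cultured MHC-IIhi (0.79 ± 0.26). In MHC-IIlo it did not pass (0.08 ± 0.25), nor did the difference between the subsets (-0.71 ± 0.36). Summed per kilobase of gene length, the 3 carriers were at 182 ± 34.9 CPM per kb in fresh MHC-IIhi, 167 ± 30.7 in fresh MHC-IIlo, 123 ± 47.2 and 41.7 ± 3.12 without lactate, and 149 ± 57.96 and 70.8 ± 12.6 with it. Slc2a1 was 98.5% ± 0.555 of that sum in fresh MHC-IIlo and 82.1% ± 3.22 in no-lactate MHC-IIlo, a smaller share in each cultured library (exact permutation test, 2-sided, p = 0.00794, the smallest that 5 against 5 can give, adjusted p = 0.0197 over 119 share tests).

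Hexokinases phosphorylate glucose, and in culture Hk3 rose while Hk2 fell. Hk3, the form known from myeloid cells, stood at 174, 124, 147, 200.2 and 169 CPM in fresh MHC-IIhi and 254, 207, 199.8, 301 and 305 in fresh MHC-IIlo. Without lactate it reached 768, 731, 452, 730.5 and 631 CPM in MHC-IIhi and 769, 883, 666, 698 and 814 in MHC-IIlo. Every cultured library was above every fresh one, a rise of 2.03 ± 0.16 in MHC-IIhi (adjusted p = 4.4e-10) and 1.60 ± 0.16 in MHC-IIlo (adjusted p = 1.7e-08, edgeR), and the subsets did not differ in it by the test (-0.43 ± 0.22, adjusted p = 0.21). In fresh cells Hk3 was higher in MHC-IIlo (log2 fold change 0.64 ± 0.14, adjusted p = 0.0038), and in culture the subset difference did not pass (0.22 ± 0.18 without and 0.15 ± 0.18 with lactate).

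Hk2, the inducible form and a known HIF-1 target, fell most clearly in MHC-IIlo. Fresh MHC-IIlo libraries had 210.3, 175, 187, 291 and 243 CPM and no-lactate ones 72.1, 79.8, 86.99, 79.5 and 74.7, all of them below (log2 fold change -1.49 ± 0.15, adjusted p = 1.6e-08). In MHC-IIhi the fall was smaller (-0.41 ± 0.14, ended without fresh library 4 at -0.328, adjusted p = 0.058), and the 2 changes differed (-1.08 ± 0.20, adjusted p = 0.001). Hk1, the constitutive form, was 215, 254, 292, 232 and 334 CPM in lactate MHC-IIhi and 159, 164, 173, 150.1 and 148 in lactate MHC-IIlo, lower without overlap (log2 fold change -0.74 ± 0.13, adjusted p = 0.0002), and lower without lactate too (-0.74 ± 0.13). Its fresh difference of -0.24 ± 0.08 lost the call without any 1 of 6 of the 10 fresh libraries (2, 4 and 5 of MHC-IIhi and 1, 3 and 5 of MHC-IIlo, adjusted p 0.067 to 0.11). As a share of the family per kb, Hk3 went from 43.2% ± 3.05 in fresh MHC-IIhi to 78.3% ± 3.83 without lactate, and from 54.96% ± 2.58 to 88.5% ± 1.25 in MHC-IIlo (exact permutation p = 0.00794, adjusted p = 0.0197 for both). The summed level per kb was 102 ± 14.1 and 125 ± 21.6 CPM per kb in fresh MHC-IIhi and MHC-IIlo and 229 ± 37.98 and 235 ± 23.8 without lactate. In cultured MHC-IIlo the hexokinase sum was higher than fresh while the carriers' sum was lower.

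**Figure D3:**
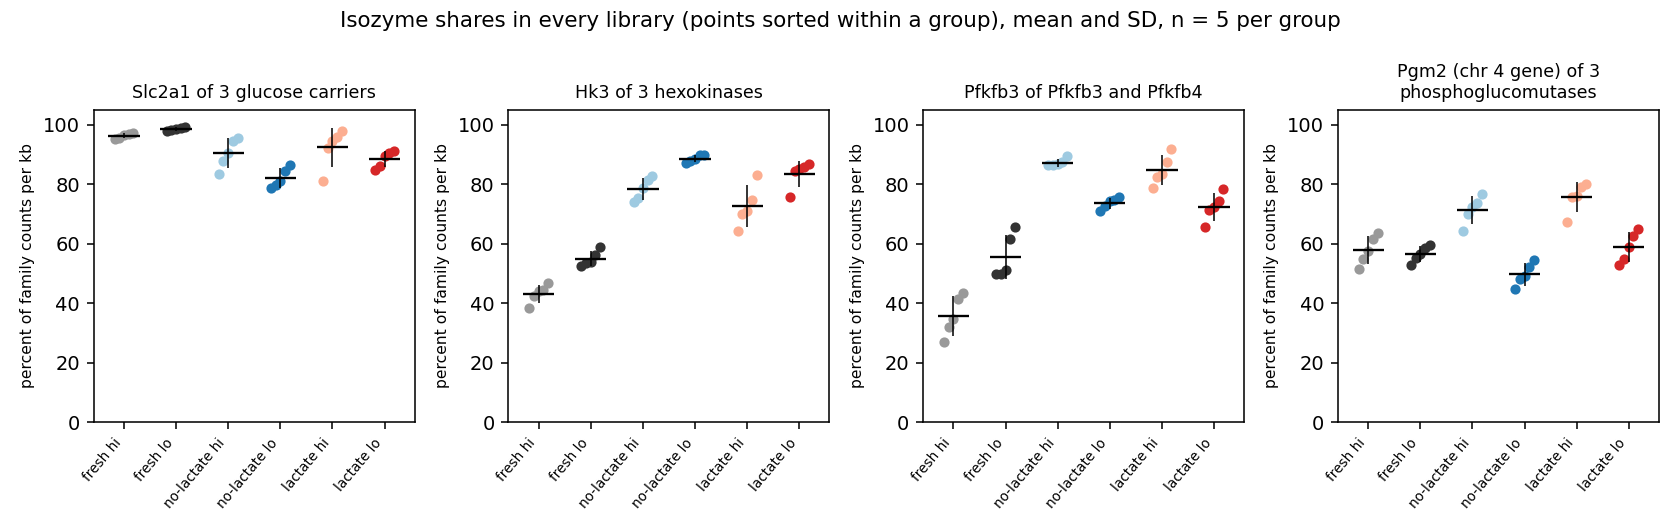
Share of its family's counts per kilobase (percent, y axis) for Slc2a1, Hk3, Pfkfb3 and Pgm2 in every library (points, sorted within a group), with mean and SD, n = 5. Hk3 lies at 38.5% to 58.8% in fresh libraries and at 64.4% or more in every cultured one, and the mean share of Pfkfb3 is higher in the cultured groups of each subset than in its fresh group, with 1 lactate MHC-IIlo library (65.5%) level with the highest fresh one.

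In the upper steps, Gpi1, which turns glucose 6-phosphate into fructose 6-phosphate, was at 784, 724, 382, 448 and 831 CPM in no-lactate MHC-IIhi and 256, 282, 198, 229.5 and 202 in MHC-IIlo (log2 fold change -1.44 ± 0.20, adjusted p = 2e-05, edgeR). MHC-IIlo was lower in every library, as it was with lactate (-1.08 ± 0.20), and it had fallen from 895, 859, 849.8, 1084 and 906 CPM in fresh cells (log2 fold change -1.97 ± 0.18, adjusted p = 7.6e-09). The fall was also called in MHC-IIhi (-0.78 ± 0.18) and smaller there than in MHC-IIlo (difference -1.19 ± 0.25, adjusted p = 0.0027).

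Phosphofructokinase is the committing step, and its liver form Pfkl and platelet form Pfkp carried it here. Pfkl was at 235, 209.7, 167, 168 and 264 CPM in no-lactate MHC-IIhi and 83.2, 97.1, 77.02, 87.1 and 75.9 in MHC-IIlo (log2 fold change -1.31 ± 0.12, adjusted p = 1.8e-07), with no overlap. The same held with lactate, at 191, 226, 231, 239.6 and 256 against 122, 130.5, 130.00, 127 and 113 (log2 fold change -0.88 ± 0.12, adjusted p = 2.2e-05), while fresh cells overlapped (-0.09 ± 0.11, adjusted p = 0.62). In MHC-IIlo Pfkl fell from 223, 208, 238, 279 and 215 CPM in fresh cells (log2 fold change -1.46 ± 0.14, adjusted p = 7.9e-09), and in MHC-IIhi the change did not pass (-0.24 ± 0.13), a difference that passed itself (-1.22 ± 0.19, adjusted p = 0.00016).

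Pfkp was lower in MHC-IIlo in all 3 states. Fresh libraries had 520.2, 580.1, 503, 574 and 514 CPM in MHC-IIhi and 229, 259.6, 231, 248 and 199.9 in MHC-IIlo (log2 fold change -1.20 ± 0.08, adjusted p = 4.8e-07). Without lactate the values were 266, 229, 147, 171 and 289.9 and 94.5, 107, 90.4, 86.3 and 99.4 (log2 fold change -1.20 ± 0.17, adjusted p = 1.8e-05), and with lactate 221, 216, 313, 229 and 352 and 128, 129, 124, 138 and 124 (log2 fold change -1.05 ± 0.17, adjusted p = 8.7e-05). MHC-IIlo was lower in every library each time, and Pfkp fell in culture in both subsets (-1.28 ± 0.14 in MHC-IIhi and -1.28 ± 0.14 in MHC-IIlo). Pfkp was 49.3% ± 3.86 of phosphofructokinase per kb in fresh MHC-IIhi and 30.7% ± 2.73 in fresh MHC-IIlo (exact permutation p = 0.00794, adjusted p = 0.0197). Pfkm, the muscle form, was at 5.03 to 12.3 CPM in all libraries and passed only as a fall in cultured MHC-IIlo (-0.60 ± 0.20, not passed on FPKM).

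Pfkfb3 and Pfkfb4 make fructose 2,6-bisphosphate, the activator of phosphofructokinase. For Pfkfb3 the order of the subsets turned over in culture. Fresh values were 82.6, 61.1, 67.2, 107 and 111 CPM in MHC-IIhi and 115, 106, 97.1, 160.1 and 172 in MHC-IIlo, overlapping and higher in MHC-IIlo (log2 fold change 0.60 ± 0.19, adjusted p = 0.029). Without lactate they were 412, 440.2, 407, 469.6 and 449 in MHC-IIhi and 157, 172, 142, 151 and 146 in MHC-IIlo (log2 fold change -1.50 ± 0.14, adjusted p = 1.1e-07). With lactate they were 438, 363, 490.4, 404 and 638 and 147, 161, 187, 117 and 155 (log2 fold change -1.61 ± 0.14, adjusted p = 5e-08). Every cultured MHC-IIhi library was above every other library of the study, after a rise of 2.35 ± 0.17 (adjusted p = 1.1e-10), the largest rise of a member in MHC-IIhi. MHC-IIlo did not change by the test (0.25 ± 0.16), and the difference between the subsets was -2.10 ± 0.23 (adjusted p = 2.9e-06). The fresh call ended without any 1 of 5 libraries (1, 2 and 3 of MHC-IIhi, 4 and 5 of MHC-IIlo, adjusted p 0.059 to 0.077).

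Pfkfb4, by contrast, fell in culture in both subsets. Fresh MHC-IIhi had 101, 106, 92.4, 97.3 and 93.01 CPM and fresh MHC-IIlo 74.6, 64.6, 63.2, 64.6 and 58.2, all lower (log2 fold change -0.59 ± 0.07, adjusted p = 6.4e-05). No-lactate MHC-IIhi had 40.8, 40.9, 41.8, 48.3 and 34.4 (log2 fold change -1.24 ± 0.09, adjusted p = 1.8e-10), and it fell in MHC-IIlo as well (-0.86 ± 0.09). Pfkfb3 was thus 35.7% ± 6.81 of the pair per kb in fresh MHC-IIhi, 55.6% ± 7.40 in fresh MHC-IIlo, 87.2% ± 1.31 in no-lactate MHC-IIhi and 73.6% ± 1.81 in no-lactate MHC-IIlo, and the shares of the subsets did not overlap in either state (exact permutation p = 0.00794, adjusted p = 0.0197).

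Aldolase cleaves the 6-carbon sugar. Aldoc, the brain form and the minor one here, had the largest subset difference of all members in each state. Its fresh values were 62.7, 86.4, 77.04, 77.7 and 71.6 CPM in MHC-IIhi and 19.7, 21.02, 18.5, 20.1 and 12.02 in MHC-IIlo (log2 fold change -2.04 ± 0.14, adjusted p = 5.5e-07). Without lactate it stood at 15.8, 14.4, 7.30, 8.77 and 15.04 and 0.945, 2.01, 0.647, 0.794 and 0.602 (log2 fold change -3.60 ± 0.32, adjusted p = 1.1e-07), and with lactate at 14.4, 21.3, 19.7, 20.3 and 30.3 and 2.93, 2.20, 2.12, 3.38 and 1.68 (log2 fold change -3.11 ± 0.30, adjusted p = 3.5e-07). MHC-IIlo was lower in every library, at counts as low as 16 in a library. Of all members it also had the largest fall in culture in each subset, -2.60 ± 0.23 in MHC-IIhi and -4.17 ± 0.28 in MHC-IIlo on the log2 scale. Aldoa, the main form, was the second most abundant member per length at 799 ± 88.01 CPM per kb in fresh MHC-IIhi, next to Pkm at 989 ± 81.5. It was lower in MHC-IIlo without lactate (log2 fold change -0.77 ± 0.19, adjusted p = 0.0052), with overlap, and did not pass with lactate (-0.33 ± 0.19). Tpi1, which interconverts the 3-carbon products, was at 632 to 1191 CPM in no-lactate MHC-IIhi and 387 to 657 in MHC-IIlo, overlapping (log2 fold change -0.99 ± 0.21, adjusted p = 0.002).

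**Figure D4:**
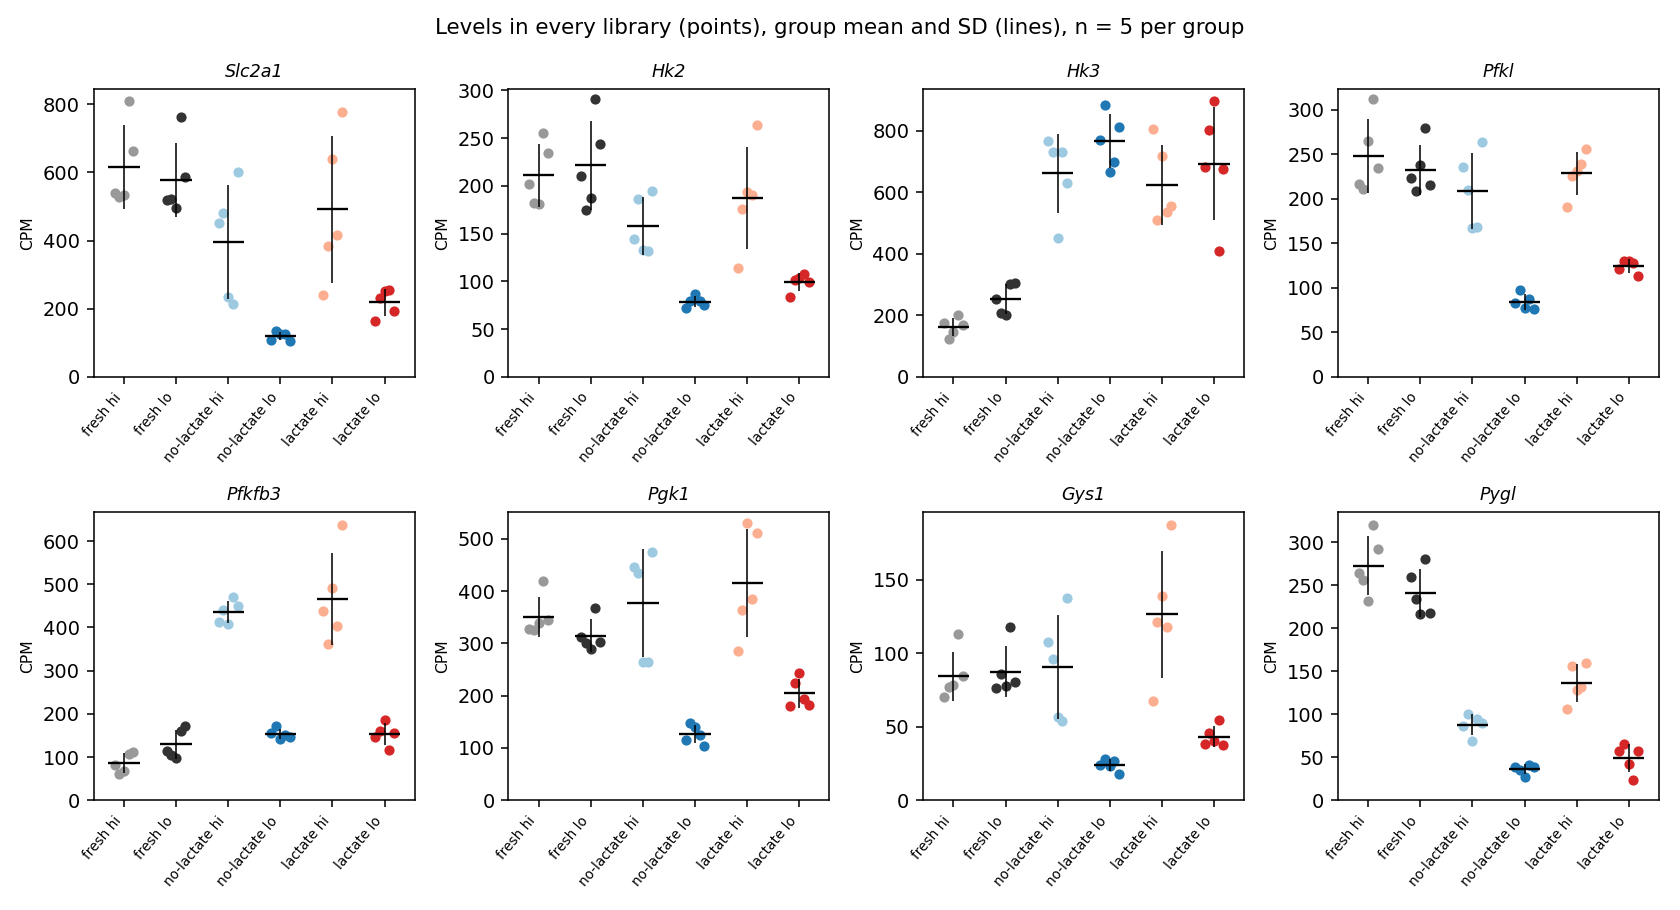
CPM (linear y axis from 0) of 8 members in every library (points), with group mean and SD (lines), n = 5 per group. Slc2a1, Hk2, Pfkl, Pgk1, Gys1 and Pygl are lowest in no-lactate MHC-IIlo, Hk3 is high in all 4 cultured groups, and Pfkfb3 is high in both cultured MHC-IIhi groups.

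Lower down, Pgk1, which makes the first ATP of the pathway, was at 445, 435, 264, 265 and 475 CPM in no-lactate MHC-IIhi and 116, 148, 140.3, 125 and 104 in MHC-IIlo, without overlap (log2 fold change -1.57 ± 0.19, adjusted p = 4e-06, edgeR). Fresh cells overlapped at 325 to 419 and 289 to 368 CPM (-0.16 ± 0.08, adjusted p = 0.2). Pgk1 fell in MHC-IIlo (-1.30 ± 0.15) and did not pass in MHC-IIhi (0.11 ± 0.15), and the difference passed (-1.41 ± 0.22, adjusted p = 0.00013). Eno1, the main enolase, had the same directions, at 938 ± 228 against 476 ± 53.4 CPM without lactate (log2 fold change -0.97 ± 0.14, adjusted p = 4.1e-05) and 1001 ± 85.8 against 669 ± 59.3 with it (log2 fold change -0.58 ± 0.14, adjusted p = 0.0056; not passed on FPKM). Pkm, pyruvate kinase, was at 2610.2 ± 484 against 1642 ± 202 CPM (log2 fold change -0.66 ± 0.15, adjusted p = 0.0028), and Pgam1, phosphoglycerate mutase, at 156 ± 40.1 against 101 ± 13.97 (log2 fold change -0.62 ± 0.16, adjusted p = 0.0076). With lactate Pkm (-0.38 ± 0.15) and Pgam1 (-0.39 ± 0.16) did not pass. In culture Eno1 fell in MHC-IIlo (-1.17 ± 0.14) and in MHC-IIhi (-0.40 ± 0.14), where the call ended without fresh library 4 or no-lactate library 6 (adjusted p 0.057 to 0.061).

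Eno2, the neuronal enolase, was the largest rise in fresh MHC-IIlo, yet at 1.15, 1.88, 0.709, 1.19 and 1.54 CPM in MHC-IIhi and 2.28, 1.85, 2.73, 2.09 and 5.24 in MHC-IIlo it was scarce (log2 fold change 1.14 ± 0.35, adjusted p = 0.026). Without fresh MHC-IIlo 5, its highest library, the change was no longer called, nor without MHC-IIhi 1, 3 or 4 (0.804 to 1.1, adjusted p 0.055 to 0.077). It rose in MHC-IIhi in culture (0.92 ± 0.35), a call lost without fresh MHC-IIhi 1 or 3 or no-lactate MHC-IIhi 5 or 6 (adjusted p 0.052 to 0.072), and the difference from MHC-IIlo (-1.47 ± 0.48) was lost without any 1 of 14 of the 20 libraries. Eno3, the muscle enolase, was at 6.595 to 17.2 CPM and passed as a fall in both subsets in culture (-0.45 ± 0.17 and -0.47 ± 0.16), calls that ended without any 1 of 3 libraries in each case (number 3 of either MHC-IIhi group and no-lactate MHC-IIhi 6, adjusted p 0.051 to 0.088; number 3 of either MHC-IIlo group and fresh MHC-IIlo 5, adjusted p 0.054 to 0.066). Gapdh, the dehydrogenase between Tpi1 and Pgk1, is uncertain in these counts. It had 51285 counts in all libraries together, against 554684 for Tpi1 and 196982 for Pgk1, and varied from 9.03 to 187 CPM among the lactate MHC-IIlo libraries alone. Gapdh has many near-identical processed copies in the mouse genome, and how reads that match several places were treated is not given in the sources used here. That limit holds too for Pgk1, Pgam1, Eno1 and Aldoa. Their relatives Pgk1-rs7, Pgam1-ps1, Pgam1-ps2, Eno1b, Aldoart1 and Aldoart2 had 39 to 318 counts each in all libraries together. The part of such copies was not tested. Gapdh passed no comparison.

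Phosphoglucomutase joins glycolysis and glycogen. The table's symbols Pgm2 (ENSMUSG00000025791, chromosome 4) and Pgm1 (ENSMUSG00000029171, chromosome 5) are swapped in later annotation, and the table's names are used here. Pgm2 was at 111, 122, 75.4, 86.7 and 131 CPM in no-lactate MHC-IIhi and 38.9, 47.8, 39.7, 44.8 and 34.4 in MHC-IIlo (log2 fold change -1.35 ± 0.17, adjusted p = 6.3e-06, edgeR). With lactate it was at 87.9, 132, 155, 129 and 177 and 52.5, 66.2, 72.98, 65.2 and 56.8 (log2 fold change -1.12 ± 0.17, adjusted p = 5.6e-05), again without overlap, and fresh cells did not differ by the test (-0.01 ± 0.11). Pgm1 fell in both subsets (-0.86 ± 0.09 and -0.88 ± 0.09), and the difference between them did not pass ( -0.02 ± 0.12, adjusted p = 0.93). The Pgm2 share of the family per kb was 71.3% ± 4.73 in no-lactate MHC-IIhi and 49.7% ± 3.77 in MHC-IIlo (exact permutation p = 0.00794, adjusted p = 0.0197).

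Pgm2l1, which makes glucose 1,6-bisphosphate, was the member that was higher in MHC-IIlo both fresh and without lactate. Fresh values were 28.3, 22.9, 22.2, 20.5 and 29.4 CPM in MHC-IIhi and 42.5, 35.2, 32.1, 40.2 and 47.5 in MHC-IIlo (log2 fold change 0.68 ± 0.12, adjusted p = 0.0011), and no-lactate values 10.6, 9.72, 10.3, 11.1 and 8.93 and 16.1, 13.5, 13.1, 15.1 and 17.9 (log2 fold change 0.59 ± 0.12, adjusted p = 0.0015). No library of one subset reached those of the other in either state. With lactate the subsets overlapped (-0.14 ± 0.12).

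All 3 glycogen enzymes were lower in MHC-IIlo in both cultured states, where 11.6% (without lactate) and 13.3% (with lactate) of all genes were lower. Gys1, glycogen synthase, was at 107, 96.3, 56.8, 54.01 and 138 CPM in no-lactate MHC-IIhi and 24.2, 28.1, 23.6, 26.7 and 17.6 in MHC-IIlo (log2 fold change -1.91 ± 0.25, adjusted p = 1.2e-05), and with lactate at 67.5, 121, 139, 118 and 188 and 38.1, 45.8, 40.3, 54.5 and 37.8 (log2 fold change -1.55 ± 0.25, adjusted p = 0.00012). MHC-IIlo was lower in every library, although fresh cells had 70.1 to 113 and 76.2 to 118 CPM and did not differ by the test (0.05 ± 0.14). Gys1 fell in MHC-IIlo (-1.86 ± 0.22) and did not pass in MHC-IIhi (0.11 ± 0.21, difference -1.96 ± 0.30, adjusted p = 0.00015).

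Pygl, the liver glycogen phosphorylase, fell in both subsets. Fresh MHC-IIlo had 259, 234, 216, 280.4 and 217 CPM and no-lactate MHC-IIlo 38.4, 35.3, 26.9, 41.2 and 39.00 (log2 fold change -2.73 ± 0.13, adjusted p = 1.1e-13). In MHC-IIhi it went from 264, 257, 231, 320.3 and 292 to 85.97, 101, 69.2, 94.2 and 90.1 CPM (log2 fold change -1.63 ± 0.12, adjusted p = 1.9e-10). No cultured library reached a fresh one, the fall was larger in MHC-IIlo (-1.11 ± 0.17, adjusted p = 0.00013), and the subsets differed by -1.28 ± 0.20 without and -1.47 ± 0.20 with lactate. Gbe1, the branching enzyme, rose in MHC-IIhi from 13.9 to 28.8 CPM (log2 fold change 1.06 ± 0.14, adjusted p = 1.1e-06) and did not pass in MHC-IIlo (0.13 ± 0.14), a difference of -0.94 ± 0.20 (adjusted p = 0.0027). Its small excess in fresh MHC-IIlo (0.32 ± 0.11) was no longer called without any 1 of 7 libraries (fresh MHC-IIhi 1, 3 and 5, and MHC-IIlo 1, 2, 4 and 5, adjusted p 0.053 to 0.11).

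Of the 7 pentose phosphate enzymes, 5 were lower in fresh MHC-IIlo (15.2% of all genes were), and 1, Tkt, in each cultured comparison of the subsets (11.6% and 13.3% of all genes). All 3 oxidative enzymes, G6pdx (the entry dehydrogenase), Pgls (the lactonase) and Pgd (the second dehydrogenase), were lower in fresh MHC-IIlo. Pgd was at 446, 459, 456, 547 and 507 CPM in fresh MHC-IIhi and 377, 364, 338, 392 and 363 in MHC-IIlo, without overlap (log2 fold change -0.40 ± 0.07, adjusted p = 0.00093, edgeR). G6pdx did not overlap either (-0.32 ± 0.06), and it rose in culture in both subsets (0.55 ± 0.10 and 0.48 ± 0.10). Pgls differed by -0.26 ± 0.08 in fresh cells, a call that ended without any 1 of 6 libraries (fresh MHC-IIhi 3, 4 and 5 and MHC-IIlo 2, 3 and 5, adjusted p 0.057 to 0.086), and in MHC-IIhi fell from 71.9, 66.4, 77.5, 88.3 and 75.6 CPM to 36.9, 25.9, 28.3, 29.1 and 31.3 in culture (log2 fold change -1.32 ± 0.10, adjusted p = 5.1e-10).

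Of the non-oxidative enzymes, Tkt, transketolase, had 603, 668, 680.4, 762 and 688 CPM in fresh MHC-IIhi and 373, 403, 369, 383 and 351 in MHC-IIlo, without overlap (log2 fold change -0.86 ± 0.07, adjusted p = 4e-06). In cultured MHC-IIhi it fell to 282, 229, 198, 227 and 256 CPM (log2 fold change -1.51 ± 0.10, adjusted p = 1.5e-11) and in cultured MHC-IIlo to 206, 196, 165, 170.3 and 176 (log2 fold change -1.03 ± 0.09, adjusted p = 5.9e-09). The remaining gap overlapped and was -0.38 ± 0.12 without lactate, ended without any 1 of 5 libraries (no-lactate MHC-IIhi 3 and 7, MHC-IIlo 4, 5 and 6, adjusted p 0.073 to 0.10), and -0.43 ± 0.12 with lactate, ended without lactate MHC-IIhi 1 (-0.350, adjusted p = 0.052). Taldo1, transaldolase, was at 262, 265, 277, 333 and 287 CPM in fresh MHC-IIhi and 228, 213, 218, 230.4 and 223 in MHC-IIlo (log2 fold change -0.36 ± 0.07, adjusted p = 0.0019), and it rose in MHC-IIlo in culture (0.43 ± 0.09) but did not pass in MHC-IIhi (-0.12 ± 0.09; difference 0.55 ± 0.13, adjusted p = 0.0067). Rpia, the ribose isomerase, fell in both subsets (-0.95 ± 0.09 and -0.70 ± 0.09), and Rpe, the epimerase, passed in no comparison. Besides Slc2a6, Tkt (0.47 ± 0.13) and Taldo1 had a culture change shifted upwards in MHC-IIlo relative to MHC-IIhi, and both calls ended when all 30 libraries were fitted together (adjusted p = 0.052 for Tkt and 0.073 for Taldo1).

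Same-numbered fresh libraries deviated together, and with the replicate number as a block the fresh comparison called 20 members in place of 15, while the share of all genes called went from 29.2% to 39.1%. The 5 added were all lower in MHC-IIlo and small in size: Gpi1 (-0.25, adjusted p = 0.002), Aldoa (-0.24, 0.0026), Eno1 (-0.21, 0.011), Pgk1 (-0.15, 0.024) and Pygl (-0.17, 0.032). Library 4 was the highest of its group for 20 members in fresh MHC-IIhi and for 18 in fresh MHC-IIlo.

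Within cultured MHC-IIhi the libraries varied widely and many members moved together. Libraries 5 and 6 of no-lactate MHC-IIhi were the 2 lowest of the 5 for Slc2a1, Gpi1, Tpi1, Gys1 and Eno1, and library 5 was the lowest for 19 of 35 members. Their dendritic cell marker sums were 277 and 258 CPM, against 93.7 to 162 in the other 3. Their macrophage marker sums were 10030 and 13500 CPM, against 6015 to 9641 in the other 3. Lactate MHC-IIhi 1 was the lowest of its group for 15 members, with Slc2a1 at 239 CPM against a group mean of 491. It had the highest dendritic and macrophage marker sums of its group, 272 and 17950 CPM. Lactate MHC-IIhi 6 had the next highest dendritic sum, 160.7 CPM, and the lowest macrophage sum, 6899 CPM. That library was the highest of its group for 14 members, with Slc2a1 at 778 CPM. In no-lactate MHC-IIlo the dendritic cell marker sum was at most 4.55 CPM, and Slc2a1 lay at 106 to 134 CPM and Tpi1 at 387 to 657. Library 3, with the highest sum there, was the highest of its group for 18 members. Whether these sums bear on the levels was not tested.

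With lactate for 24 h few members passed the test, though most point estimates were above 0. In MHC-IIlo 32 of 35 members had a positive log2 fold change, with a median of 0.43 against 0.0127 over all genes, and in 9 members every lactate library was above every no-lactate one (2.88% of all genes), while for 0 every one was below (2.76%). One member passed the test, Pfkl (1 of 35, against 1.49% of all genes, 0.905% higher and 0.581% lower), from 83.2, 97.1, 77.02, 87.1 and 75.9 CPM without to 122, 130.5, 130.00, 127 and 113 with lactate, without overlap (log2 fold change 0.57 ± 0.12, adjusted p = 0.024, edgeR). The other 8 without overlap were Slc2a1 (0.87 ± 0.28, adjusted p = 0.11), Hk1 (0.46 ± 0.13, 0.064), Gpi1 (0.67 ± 0.20, 0.082), Pfkp (0.43 ± 0.16, 0.18), Pgk1 (0.69 ± 0.19, 0.064), Eno1 (0.49 ± 0.14, 0.081), Pgm2 (0.61 ± 0.17, 0.068) and Gys1 (0.85 ± 0.25, 0.083). The adjusted p of these 8 lay between 0.064 and 0.18, and the count depended on the fit. DESeq2 and a fit of all 30 libraries each called the same 11 members (those with Pfkl, Slc2a1, Hk1, Gpi1, Pgk1, Eno1, Pgm2 and Gys1, and also Aldoc, Tpi1 and Pkm), voom with quality weights called 17, and log2(FPKM + 1) called 2. The share of all genes called was 4.7% with DESeq2, 3.79% with all 30 libraries, 11% with voom and 2.48% with log2(FPKM + 1). Every member called by any of these was higher with lactate. Without lactate MHC-IIlo 5 the count was 3 and without MHC-IIlo 1 it was 4. Pfkl lost its call without any 1 of 6 libraries (lactate MHC-IIlo 3 and 4, no-lactate MHC-IIlo 1, 4, 5 and 6, log2 fold change 0.532 to 0.580, adjusted p 0.053 to 0.069), which left no member called.

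In MHC-IIhi 30 of 35 members were above 0 with lactate, with a median of 0.24 against -0.00553 over all genes. Pgm2l1 alone passed (1 of 35, against 0.25% of all genes, 0.206% higher and 0.0441% lower), from 10.6, 9.72, 10.3, 11.1 and 8.93 CPM to 16.9, 16.2, 13.1, 15.5 and 13.7, without overlap (log2 fold change 0.59 ± 0.12, adjusted p = 0.047, edgeR). Leaving out any 1 of the 10 libraries of the comparison ended that call (0.531 to 0.625, adjusted p 0.057 to 0.16). Of all genes 1.22% were higher and 0.728% lower without overlap. Pygl also did not overlap, at 85.97, 101, 69.2, 94.2 and 90.1 CPM without and 106, 156, 128, 132 and 159.5 with lactate, but did not pass (log2 fold change 0.64 ± 0.19, adjusted p = 0.23). No member's lactate effect differed between the subsets by the interaction, and no gene of 13593 did (0% called; 2 members had an unadjusted p under 0.05, and DESeq2 called 0 members). The interaction was 0.43 ± 0.17 for Pfkl and -0.73 ± 0.17 for Pgm2l1, so a larger effect in one subset is not shown for either. Pfkfb3 was nearly flat, with 0.11 ± 0.13 in MHC-IIhi and -0.0019 ± 0.13 in MHC-IIlo, and Hk3 was at -0.07 ± 0.18 and -0.14 ± 0.18. The sums of neutrophil markers, mainly Mmp8, were 1575 to 2294 CPM in lactate MHC-IIhi against 699 to 1045 without lactate. For MHC-IIlo they were 407 to 1626 against 735 to 1038. In MHC-IIhi mean Mmp8 was 1780 CPM with and 767 without lactate, Csf3r 35.7 and 58.3, and S100a8 15.2 and 9.96. In MHC-IIlo Mmp8 was 1170 and 836, Csf3r 36.9 and 60.1, and S100a8 17.7 and 14.5. S100a9, Ly6g, Cxcr2, Retnlg and Camp were at or near 0 in the cultured groups. The part of these markers was not tested.

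**Figure D5:**
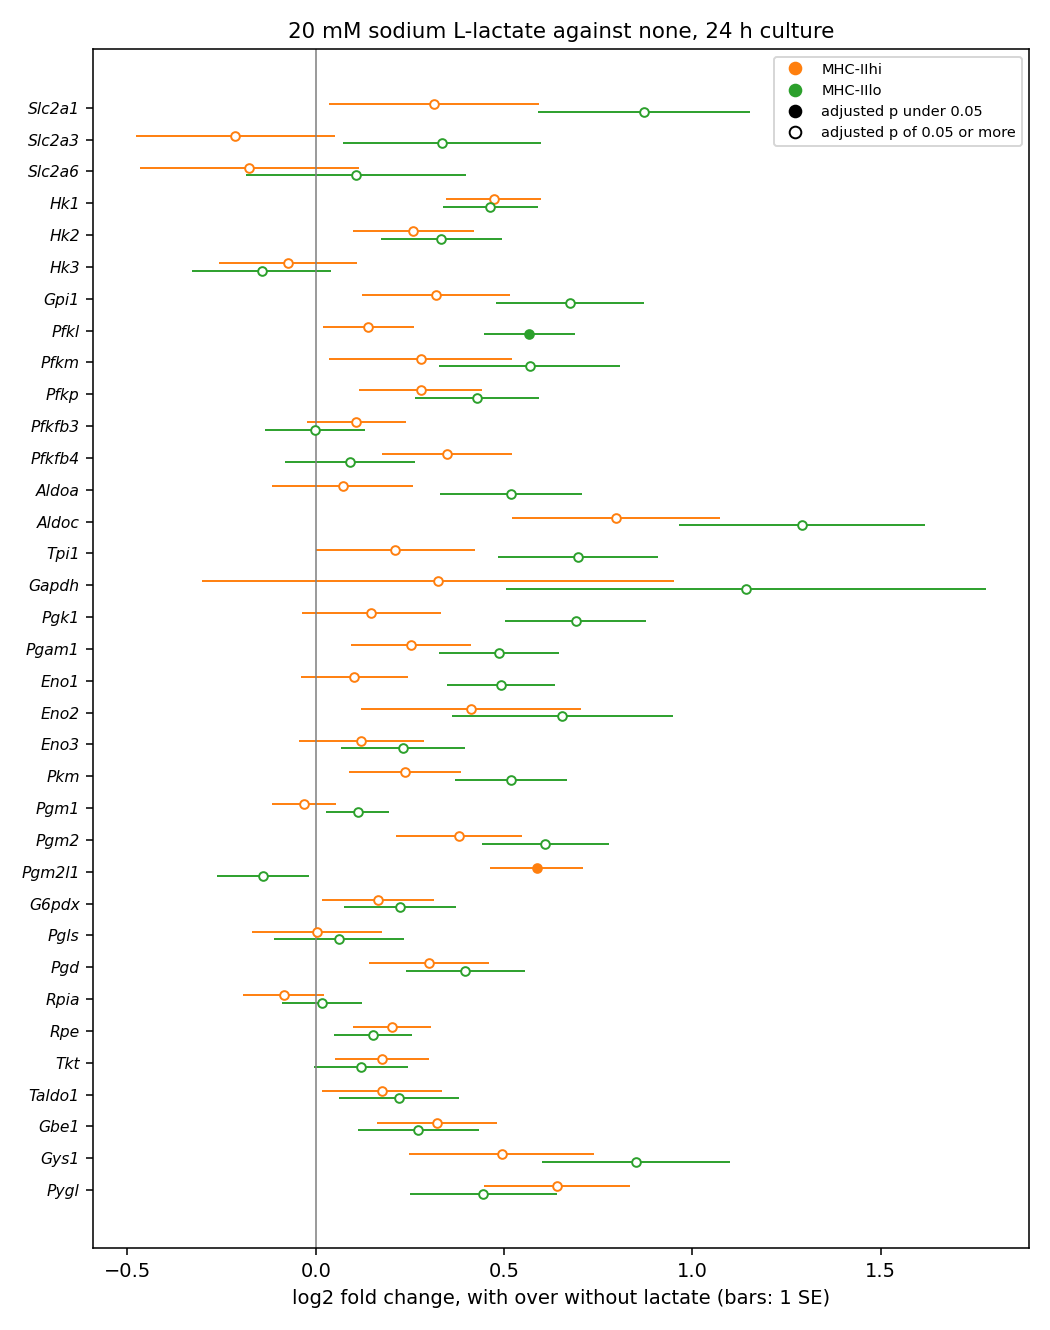
log2 fold change with over without 20 mM sodium L-lactate (x axis, bars 1 SE) for each member in MHC-IIhi (orange) and MHC-IIlo (green), n = 5 libraries per group; filled points passed the test. Most points lie right of 0, and Pfkl in MHC-IIlo and Pgm2l1 in MHC-IIhi are the 2 filled ones.

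Of 54 further genes of these pathways, 39 had enough counts in fresh cells, where 7 were higher and 8 lower in MHC-IIlo (38.5%, against 29.2% of all genes). The one past a log2 fold change of 1 was Ppp1r3d, a subunit that brings protein phosphatase 1 to glycogen, at 7.95 CPM in MHC-IIlo and 21.1 in MHC-IIhi (edgeR, log2 fold change -1.41 ± 0.16, adjusted p = 3.6e-05). Without lactate 5 of 40 were higher and 4 lower (22.5%, close to the 20.8% of all genes), among them the carrier Slc2a8 (GLUT8, 1.03 ± 0.21) and Epm2a (laforin, the glycogen phosphatase, -1.26 ± 0.33). With lactate 5 were higher and 4 lower (22.5%, against 22.4% of all genes), with Epm2a at -1.48 ± 0.33 and Gpd1, the cytosolic glycerol 3-phosphate dehydrogenase, at 1.87 ± 0.58 on less than 1 CPM. None passed for lactate in either subset. Their median subset difference without lactate was 0.12, against -0.62 for the 35 members.

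In culture 19 of 39 further genes fell and 5 rose in MHC-IIhi, and 18 fell and 9 rose in MHC-IIlo. Called in either direction were 61.5% and 69.2% of them, against 62% and 57.5% of all genes (falls 30.4% and 29.9%, rises 31.6% and 27.6%). Past a log2 change of 1 in MHC-IIhi were the falls of G6pc3, a glucose 6-phosphatase (-1.84 ± 0.08), Gpd1 (-3.15 ± 0.41), Slc2a9 (-1.29 ± 0.13), Shpk, sedoheptulokinase (-1.44 ± 0.22), Ppp1r3d (-2.27 ± 0.19), Ppp1r3b (-1.01 ± 0.23), Stbd1 (-1.20 ± 0.38) and Nhlrc1 (-1.04 ± 0.42), and the rise of Gfpt1, which leads sugar into hexosamines (1.27 ± 0.11). In MHC-IIlo they were the falls of Epm2a (-2.38 ± 0.31), Gpd1 (-3.40 ± 0.39), Ppp1r3b (-1.73 ± 0.23), Stbd1 (-1.70 ± 0.43), Ppp1r3d (-1.13 ± 0.19) and G6pc3 (-1.06 ± 0.08), and the rise of Gyg, glycogenin, the primer of glycogen (1.42 ± 0.12). The culture change differed between the subsets past a log2 of 1 for Epm2a (-1.87 ± 0.42) and Ppp1r3d (1.14 ± 0.26).

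Of 12 regulators of glucose genes, 11 were tested in culture, and in MHC-IIlo 2 were higher and 4 lower without lactate (54.5%, against 20.8% of all genes), and 1 was higher and 5 lower with it (54.5%, against 22.4%). Without lactate Hif1a, the oxygen-regulated HIF-1 subunit, was at 199 ± 19.9 CPM in MHC-IIlo and 354 ± 92.2 in MHC-IIhi (edgeR, log2 fold change -0.82 ± 0.19, adjusted p = 0.0034). Lower too were Egln1 (-0.78 ± 0.16) and Egln3 (-1.27 ± 0.34), prolyl hydroxylases that mark HIF for decay, and Vhl (-0.91 ± 0.09), which recognises the mark. Epas1 (HIF-2 alpha) was higher in MHC-IIlo (log2 fold change 2.53 ± 0.32, adjusted p = 7.2e-06), as was Bach1, a haem-sensing repressor (0.39 ± 0.11). With lactate Hif1a (-0.72 ± 0.19), Egln1 (-0.92 ± 0.16), Egln3 (-1.09 ± 0.34), Vhl (-0.89 ± 0.09) and Mlxip, a glucose-sensing factor (-0.47 ± 0.09), were lower and Epas1 higher (1.82 ± 0.33).

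In fresh cells Epas1 was higher in MHC-IIlo (0.96 ± 0.20), and Vhl (-0.34 ± 0.11) and Mlxip (-0.39 ± 0.07) were lower. Culture changed Hif1a by -0.50 ± 0.14 in MHC-IIhi and by -1.49 ± 0.14 in MHC-IIlo (difference -0.99 ± 0.20, adjusted p = 0.0016), and Egln3 by -0.55 ± 0.17 and -1.97 ± 0.18 (difference -1.42 ± 0.24, adjusted p = 0.00039). Egln1 fell in MHC-IIlo (-1.26 ± 0.15; difference -1.02 ± 0.20). Vhl rose in both subsets (1.12 ± 0.10 and 0.55 ± 0.10), as did Mlx, the partner of the glucose-sensing factors (0.41 ± 0.09 and 0.36 ± 0.09), while Bach1 (-0.49 ± 0.11 and -0.45 ± 0.11) and Mlxipl, ChREBP (-4.81 ± 0.60 and -4.44 ± 0.65, at about 1 CPM or less), fell. Myc rose (0.91 ± 0.17), and Nfe2l2, the antioxidant factor NRF2 (-0.59 ± 0.11), and Epas1 (-1.23 ± 0.28) fell in MHC-IIhi. With lactate Epas1 fell in MHC-IIlo (log2 fold change -1.30 ± 0.30, adjusted p = 0.037), and no other regulator passed for lactate.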

How the data were processed

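RNA-seq was done on 30 libraries in 6 groups of 5. Per the submitters' processing notes, Trimmomatic, STAR, featureCounts and GRCm38 were used, with no versions given. The authors deposited raw read counts of 46603 gene IDs and FPKM of 13778 genes, and the FPKM filter is not given in the sources used here. Cultured columns carry header numbers unlike those of the sample labels, so they were placed in a group and not with a sample record; no column of per-sample values was left unused.

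Counts were tested with edgeR 4.0.16 in R 4.3.3 (filterByExpr with a minimum count of 10, TMM, quasi-likelihood F test, 2-sided, Benjamini-Hochberg over all genes tested) in 3 fits without a block: fresh, cultured, and fresh with no-lactate libraries. Family shares, of counts per kb, were compared by exact permutation. No 2 libraries of a group were identical (chi-square per degree of freedom at least 9.05). Fresh libraries with the same number deviated together (correlations 0.172 to 0.698 over 5 pairs, the best partner in 4), so numbers pair them by the data alone. The edgeR steps were tested on simulated data. Alternatives were RLE, library totals, no filter, DESeq2 1.42.0, limma 3.58.1 voom, all 30 libraries, log2(FPKM + 1) and log2(FPKM + 0.1), a replicate block, each library left out, and, added after seeing the data, lactate MHC-IIlo 5 out of the fit.

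All 35 members are named. Values in every library are given for at most 8 members per comparison, those called without overlap in order of p and the largest rise and fall; further pathway genes are named at a log2 change of at least 1, and regulators where called. Members, lists, tests and rules were chosen with earlier results of these data known. Promoters are from RefSeq (GRCm38.p6). Python 3.11.15 drew the figures.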

Additional observations from a re-analysis of the deposited data

Results flagged for a closer look

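In 210 sets of 5 libraries (35 members in 6 groups), 11 had a library set apart from the other 4 by a gap above the 95% critical value of Dixon (0.710 of the range), about the 1 in 20 that chance gives. Gpi1 stood at 1084 CPM in fresh MHC-IIlo 4, against 849.8 to 906 in the others. Pfkm stood at 9.57 CPM in no-lactate MHC-IIhi 5, against 5.03 to 5.91 in the others. Aldoa stood at 2632 CPM in fresh MHC-IIhi 4, against 2052 to 2119 in the others. Aldoa stood at 2111 CPM in no-lactate MHC-IIlo 3, against 1395 to 1548 in the others. Aldoc stood at 12.02 CPM in fresh MHC-IIlo 5, against 18.5 to 21.02 in the others. Aldoc stood at 2.01 CPM in no-lactate MHC-IIlo 3, against 0.602 to 0.945 in the others. Tpi1 stood at 977 CPM in fresh MHC-IIlo 4, against 784 to 831 in the others. Pgk1 stood at 419 CPM in fresh MHC-IIhi 4, against 325 to 344 in the others. Eno2 stood at 5.24 CPM in fresh MHC-IIlo 5, against 1.85 to 2.73 in the others. Rpe stood at 31.7 CPM in fresh MHC-IIlo 5, against 39.1 to 41.6 in the others. Gys1 stood at 118 CPM in fresh MHC-IIlo 4, against 76.2 to 85.6 in the others. Of these, 3 were in fresh MHC-IIlo 4 and 3 in fresh MHC-IIlo 5, and none in lactate MHC-IIlo 5.

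The culture change differed between MHC-IIlo and MHC-IIhi, by the interaction in edgeR at an adjusted p under 0.05, in 19 members. The difference in log2 fold change, MHC-IIlo less MHC-IIhi, was below 0 for Pfkfb3 (-2.10), Gys1 (-1.96), Slc2a1 (-1.64), Aldoc (-1.57), Eno2 (-1.47), Pgk1 (-1.41), Pgm2 (-1.34), Pfkl (-1.22), Gpi1 (-1.19), Pygl (-1.11), Hk2 (-1.08), Tpi1 (-0.95), Gbe1 (-0.94), Eno1 (-0.77), Pkm (-0.57) and Hk1 (-0.50), and above 0 for Tkt (0.47), Taldo1 (0.55) and Slc2a6 (1.43). The calls of Eno2, Pkm and Hk1 ended without any 1 of 14, 10 and 9 of the 20 libraries.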

How the results depend on the processing

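In the 3 comparisons of subsets, the 2 of culture, and both interactions, the number of members called stayed within 1.5 times its value under every alternative run, leaving out each library included. For lactate in MHC-IIhi, where 1 member was called, the count was 2 with DESeq2, 2 with the replicate block, 2 when lactate MHC-IIlo 5 was dropped, an alternative chosen after seeing the data, and 0 with library totals, RLE, no filter, log2(FPKM + 1) with and without a filter and log2(FPKM + 0.1), and 0 to 0 on leaving out each library. For lactate in MHC-IIlo, where 1 was called, it was 11 with all 30 libraries, 11 with DESeq2, 4 with library totals, 17 with voom, 3 with log2(FPKM + 0.1), 2 with log2(FPKM + 1), 2 with no filter, 14 with the replicate block, 11 with the block when lactate MHC-IIlo 5 was dropped (likewise chosen after seeing the data), and 0 to 4 on leaving out each library; the cause was not tested. In the cultured comparisons same-numbered libraries did not all deviate together. At least 1 pair of each comparison had a correlation under 0.1 (lowest -0.59 to 0.0356, highest 0.533 to 0.705). The best partner was the same number in 4 of 5 for lactate MHC-IIhi and MHC-IIlo. It was so in 4 of 5 for no-lactate and lactate MHC-IIlo, and in 2 of 4 for the other 2 comparisons. For no-lactate and lactate MHC-IIlo, number 4 was at 0.0356 and the other numbers at 0.407 to 0.561. By the data, the numbers thus pair cultured libraries only in part. In these comparisons a call that the block moves is not read as a stronger or weaker effect. Of 119 family shares 66 passed, against 69 from the FPKM table and 64 from raw counts without length; leaving out 1 replicate number of every group gave 0 to 0, since the exact test of 4 against 4 cannot go below p = 0.0286. Tpi1, not called in fresh cells (-0.04), turned to 0.28 with log2(FPKM + 0.1) and 0.28 with log2(FPKM + 1), filtered or not, and the Pfkp share in cultured MHC-IIlo, not called (1.66 points higher), to -6.70 points from the FPKM table; the cause was not tested. Depth limits Eno2, and Aldoc in cultured MHC-IIlo, which had the lowest counts of the members.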
